A study of Mus musculus with 4 samples.

Results

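The 4 nuclear factor I (NFI) genes of the mouse, Nfia, Nfib, Nfic and Nfix, were examined in cells sorted from the postnatal retina. They were taken by gene symbol, and they are all the family members among the 21827 genes measured. Each of the 4 genes was among the 12940 genes with an FPKM that reached 1 in some library, where FPKM is a level per transcript length and per library size.

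The retinas came from FVB/N mice without particular treatment that carried pHes1-EGFP, a transgene in which a fragment of the Hes1 promoter drives destabilized EGFP. Cells with EGFP (Hes1P, called pHes1_EPC here) and without it (Hes1N, pHes1_ENC) were sorted at postnatal day 1 (P1) and at postnatal day 4 (P4). Every fraction at each age was sequenced as 1 library, so no test between groups was possible and the differences below are descriptions of these libraries. The number of animals behind a library was not given in the sources used here. The transgene reports activity of a promoter that retinal progenitors and Müller glia share, so pHes1_EPC are a promoter-defined fraction and not a pure cell type. Hes1 itself, a Notch effector, was at 16.6 FPKM at P1 and 3.59 at P4 in pHes1_ENC, and 104.5 and 93.5 in pHes1_EPC, so the sorted fractions followed the promoter at both ages.

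NFI proteins are transcription factors that bind DNA as dimers, through a conserved region near the amino terminus, at a palindrome made of the motif TTGGC and its complement. In the brain they take part in the switch from neurogenesis to gliogenesis and in the maturation of astrocytes. In the retina, NFI factors are known as regulators of late progenitors, in which they promote exit from the cell cycle and the formation of bipolar cells and Müller glia.

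The 4 genes are close relatives in sequence, which bears on how well short reads tell them apart. In the NCBI37/mm9 genome with the GENCODE vM1 annotation, exon 2 of each gene is a coding exon of 532 bases that encodes most of the DNA-binding region, and 351 of its bases (66.0%) are the same in all 4 genes. A stretch of 90 bases from this exon (exon positions 53 to 142) is shown for each gene because no other stretch of that length in the exon has more positions shared by the family. It lies at chr4:97449825-97449914 on the plus strand in Nfia, and on the minus strand at chr4:82144532-82144621 in Nfib, chr10:80883402-80883491 in Nfic and chr8:87296073-87296162 in Nfix. The stretches are written 5′ to 3′ along the coding strand, and capitals mark the 22 positions that are not the same in all 4 genes.
Nfia: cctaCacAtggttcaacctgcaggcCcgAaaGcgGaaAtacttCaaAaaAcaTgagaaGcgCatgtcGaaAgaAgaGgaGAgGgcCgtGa
Nfib: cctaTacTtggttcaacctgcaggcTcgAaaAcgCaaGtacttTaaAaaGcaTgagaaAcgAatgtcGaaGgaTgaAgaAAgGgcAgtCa
Nfic: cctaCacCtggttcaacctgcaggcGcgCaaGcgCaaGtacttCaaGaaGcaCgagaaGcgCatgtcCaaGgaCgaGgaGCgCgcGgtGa
Nfix: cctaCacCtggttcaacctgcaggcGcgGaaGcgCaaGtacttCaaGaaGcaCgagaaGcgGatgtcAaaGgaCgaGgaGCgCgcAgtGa

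Over the whole exon, Nfic and Nfix were the closest pair (82.0% identical, with a longest shared run of 32 bases) and Nfia and Nfic the most distant pair (75.8%). No window of 36 bases, the read length, was shared exactly between transcripts of different members. Exact matches to other protein-coding genes were found for 13 of the 9999 Nfia windows and 8 of the 6843 Nfix windows, and for 0 windows of Nfib and Nfic. Windows that came within 2 mismatches of another member made up 0.0900% of Nfia windows, 0 of the 9612 Nfib windows, 1.45% of Nfic windows and 1.32% of Nfix windows. Each of the 4 genes was a single line in every library.

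Nfia is located at chr4:97248634-97785567 in the authors' annotation and was the least abundant member in both pHes1_ENC libraries. Its FPKM was 3.19 (95% interval 2.94 to 3.44) in pHes1_ENC and 8.09 (7.64 to 8.56) in pHes1_EPC at P1, and 1.66 (1.48 to 1.84) and 11.3 (10.8 to 11.9) in the same fractions at P4. These intervals come from Cufflinks for 1 library at a time and do not cover variation between animals or sorts. Both pHes1_EPC libraries were above both pHes1_ENC libraries, and no pair of intervals overlapped. The lack of overlap, in either direction, held for all 4 members and for 19.3% of the 12940 genes. Nfia had the widest range of the 4 genes, with 6.80 times between its lowest and its highest library. It was 2.54 times higher in pHes1_EPC than in pHes1_ENC at P1 (2.22 to 2.92 from the interval ends) and 6.80 times higher at P4 (5.88 to 8.01). In a sorted fraction, more cells with a transcript and more transcript per cell cannot be told apart.

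The Nfia line shares its first 2649 bases with the line of E130114P18Rik, a gene on the opposite strand that was named after its values were seen. E130114P18Rik was at 20.6 FPKM in pHes1_ENC and 67.6 in pHes1_EPC at P1, and 6.11 and 139.4 at P4, the same order of libraries as Nfia. The cDNA was made with random primers by a protocol that names no step to mark strand, so reads from the shared stretch cannot be told apart. In GENCODE vM1, the Nfia transcripts start at position 97439425, downstream of this stretch, and 4 of their 10945 exonic bases are also exonic in E130114P18Rik. The part of these reads in the Nfia values was not tested.

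Nfib is located at chr4:81936077-82151212. Its FPKM was 16.2 (15.6 to 17.0) at P1 and 13.9 (13.3 to 14.6) at P4 in pHes1_ENC, and 23.6 (22.8 to 24.6) and 35.7 (35.1 to 37.1) at these ages in pHes1_EPC. Nfib was among the 2 most abundant members in every library and had the narrowest range, 2.57 times. It was 1.46 times higher in pHes1_EPC than in pHes1_ENC at P1 (1.34 to 1.58) and 2.57 times higher at P4 (2.40 to 2.80). As for Nfia, both pHes1_EPC libraries were above both pHes1_ENC libraries.

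Nfix is located at chr8:87231498-87324239. Its FPKM was 7.57 (6.85 to 8.28) in pHes1_ENC and 28.4 (26.8 to 30.1) in pHes1_EPC at P1, and 13.4 (12.4 to 14.5) and 24.7 (23.2 to 26.2) in the same fractions at P4. Nfix was highest in P1 pHes1_EPC, whereas Nfia and Nfib were highest in P4 pHes1_EPC. It was 3.75 times higher in pHes1_EPC than in pHes1_ENC at P1 (3.24 to 4.39) and 1.84 times higher at P4 (1.60 to 2.12). In GENCODE vM1, 137 of the 7363 exonic bases of Nfix (1.86%) are shared with G430095P16Rik on the opposite strand.

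Nfic is located at chr10:80858936-80889918 and was the only one of the 4 genes with lower values in pHes1_EPC. Its FPKM was 12.7 (12.0 to 13.4) at P1 and 33.1 (32.2 to 34.6) at P4 in pHes1_ENC, and 7.40 (6.90 to 7.91) and 9.40 (8.80 to 9.99) at these ages in pHes1_EPC. Nfic was 1.72 times higher in pHes1_ENC than in pHes1_EPC at P1 (1.52 to 1.94) and 3.53 times higher at P4 (3.23 to 3.93). P4 pHes1_ENC stood well above the other 3 libraries. In GENCODE vM1, 72 of the 6534 exonic bases of Nfic (1.10%) are shared with Gm16104 on the opposite strand.

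**Figure D1:**
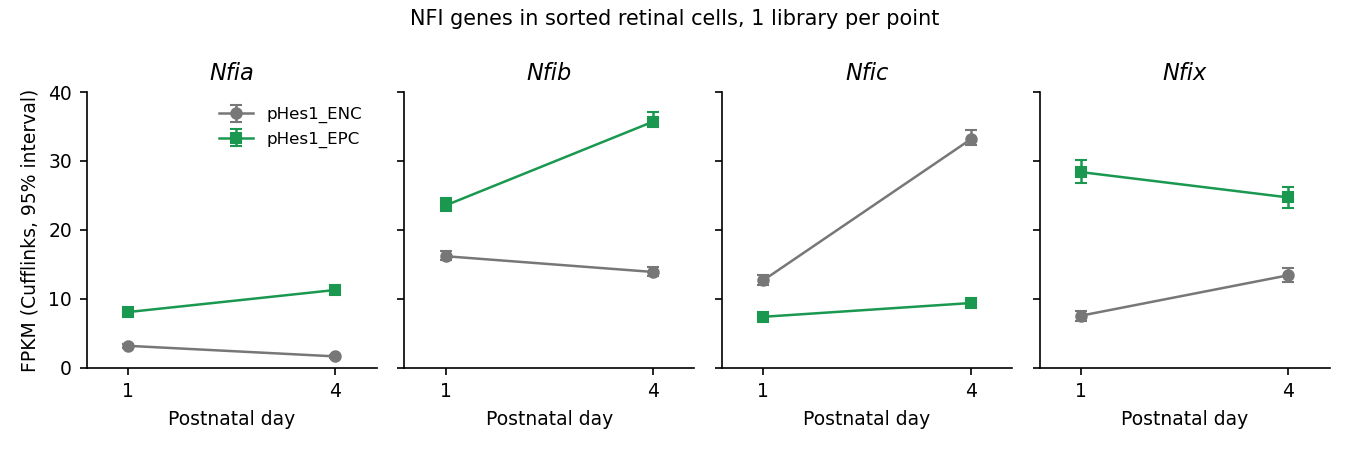
FPKM of the 4 NFI genes (vertical axis) at postnatal days 1 and 4 (horizontal axis) in pHes1_ENC (grey circles) and pHes1_EPC (green squares), 1 library per point, with bars for the 95% Cufflinks intervals. Nfia, Nfib and Nfix lie higher in pHes1_EPC at both ages, while Nfic lies higher in pHes1_ENC and reaches 33.1 FPKM at P4.

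The order of the members differed between the fractions. In P1 pHes1_ENC the order was Nfib, Nfic, Nfix and Nfia, with no overlap of intervals between neighbours. In P1 pHes1_EPC it was Nfix, Nfib, Nfia and Nfic, and the intervals of Nfia and Nfic overlapped. In P4 pHes1_ENC it was Nfic, Nfib, Nfix and Nfia, and the intervals of Nfib and Nfix overlapped. In P4 pHes1_EPC it was Nfib, Nfix, Nfia and Nfic, with all neighbours apart. Within the 12940 expressed genes, Nfib was above 59.3% to 82.6% of the genes of a library, Nfic above 39.7% to 83.5%, Nfix above 39.9% to 81.1% and Nfia above 17.2% to 49.8%.

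The make-up of the family differed between the fractions, and the summed level was higher in pHes1_EPC. The 4 genes summed to 39.6 FPKM in P1 pHes1_ENC and 67.4 in P1 pHes1_EPC, a ratio of 1.70. At P4 the sums were 62.1 FPKM in pHes1_ENC and 81.1 in pHes1_EPC, a ratio of 1.31. The ratio at P4 was lower on other scales, with 1.07 for a common total, 1.13 for median-of-ratios scaling and 1.17 for quantile normalization, and at P1 it was between 1.60 and 1.74 on these scales. Without Nfic the ratio was 2.23 at P1 and 2.47 at P4 with the deposited FPKM, and at least 2.02 at P4 on the other scales. Nfic supplied 32.1% of the summed FPKM in P1 pHes1_ENC and 53.3% in P4 pHes1_ENC, against 11.0% and 11.6% in pHes1_EPC at the same ages. Nfix supplied 42.1% of the sum in P1 pHes1_EPC and 30.5% in P4 pHes1_EPC, where Nfib was the main member with 44.0%. The share of Nfia was 12.0% and 13.9% in pHes1_EPC at P1 and P4, and 8.05% and 2.67% in pHes1_ENC.

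**Figure D2:**
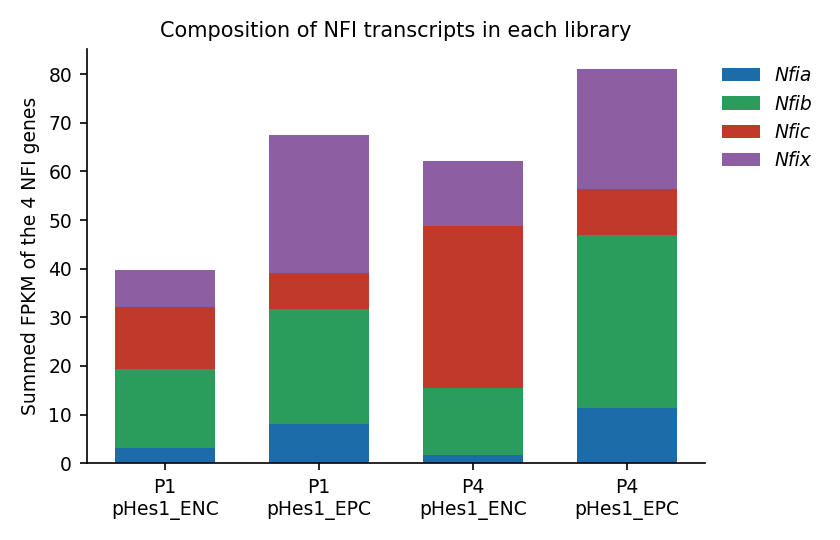
Summed FPKM of the 4 NFI genes (vertical axis) in each library (horizontal axis), with 1 colour per gene stacked from 0. The Nfic segment takes 53.3% of the P4 pHes1_ENC bar and 11.6% of the P4 pHes1_EPC bar.

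The fraction differences were then set beside those of all 12940 genes, on the scale of log2(FPKM + 1) in pHes1_EPC minus pHes1_ENC, where a difference past 1 stands for more than 2-fold. At P1 the differences were 1.12 for Nfia, 0.52 for Nfib, -0.71 for Nfic and 1.78 for Nfix. Hence 2 of the 4 genes were above 1, beside 10.3% of the 12940 genes, and 0 were below -1, beside 11.5%. At P4 the differences were 2.21 for Nfia, 1.30 for Nfib, -1.72 for Nfic and 0.83 for Nfix. Then 2 of the 4 genes were above 1, beside 16.6% of all genes, and 1 was below -1, beside 9.15%. This split of all genes at P4 depended on the scale, since 64.5% of the genes past 1 or -1 were above 1 with the deposited FPKM, 47.9% after scaling to a common total, 53.1% with median-of-ratios scaling and 49.9% with quantile normalization. The Cufflinks intervals of the fractions were apart for all 4 members at both ages, as they were for 67.7% of all genes at P1 and 73.4% at P4. Over the NFI genes the median was 0.82 at P1, beside 0.02 over all 12940 genes, and 1.07 at P4, beside 0.15.

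Nfia was past 2-fold at both ages. A higher difference was found for 8.60% of all genes at P1 and for 4.13% at P4. For Nfib, 22.0% of genes had a higher difference at P1 and 11.0% at P4. For Nfix the order was the other way, with 2.67% of genes higher at P1 and 20.7% higher at P4. For Nfic, 16.6% of genes had a lower difference at P1 and 3.20% at P4.

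**Figure D3:**
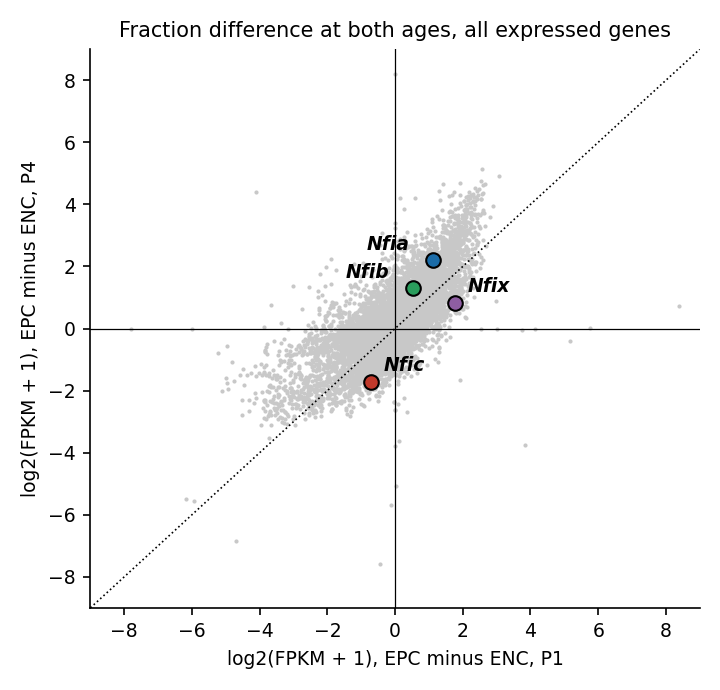
Difference of log2(FPKM + 1) between pHes1_EPC and pHes1_ENC at P1 (horizontal axis) and P4 (vertical axis) for the 12940 expressed genes (grey), with the 4 NFI genes in colour and a dotted line of equal difference. Nfia and Nfib lie above the dotted line, Nfix lies below it, and Nfic lies in the lower left quadrant.

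The change from P1 to P4 was next compared within each fraction, in log2(FPKM + 1) at P4 minus P1. In pHes1_EPC, Nfia changed by 0.44, Nfib by 0.58, Nfic by 0.31 and Nfix by -0.19, and the median of all genes was 0.17. None of the 4 genes was above 1 in pHes1_EPC, beside 7.04% of all genes, or below -1, beside 4.33%. Here 61.9% of all genes past either limit were above 1, against 31.9%, 44.1% and 44.3% with the same 3 scalings. The P4 to P1 ratio of FPKM in pHes1_EPC was 1.40 for Nfia (1.26 to 1.56), 1.51 for Nfib (1.43 to 1.63), 1.27 for Nfic (1.11 to 1.45) and 0.871 for Nfix (0.772 to 0.977).

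In pHes1_ENC, the change was -0.66 for Nfia, -0.21 for Nfib, 1.32 for Nfic and 0.75 for Nfix, beside a median of -0.01 over all genes. Nfic was the 1 member above 1 in pHes1_ENC, beside 4.67% of all genes, and 0 members were below -1, beside 10%. Genes above 1 made up 31.8% of those past either limit, against 24.9%, 32.6% and 42.6% with these scalings. Nfic was 2.61 times higher at P4 than at P1 (2.40 to 2.88), and 2.48% of all genes had a higher change. Nfix was 1.77 times higher (1.50 to 2.12), Nfia was at 0.520 of its P1 level (0.431 to 0.626) and Nfib at 0.859 (0.782 to 0.938). All 4 members had intervals apart between the ages, as did 66.2% of all genes in pHes1_EPC and 58.9% in pHes1_ENC. The sign of the change differed between the fractions for 3 of the 4 members (Nfia, Nfib and Nfix) and for 33.8% of all genes. These age changes use the same 4 libraries as the fraction differences and add no separate evidence.

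**Figure D4:**
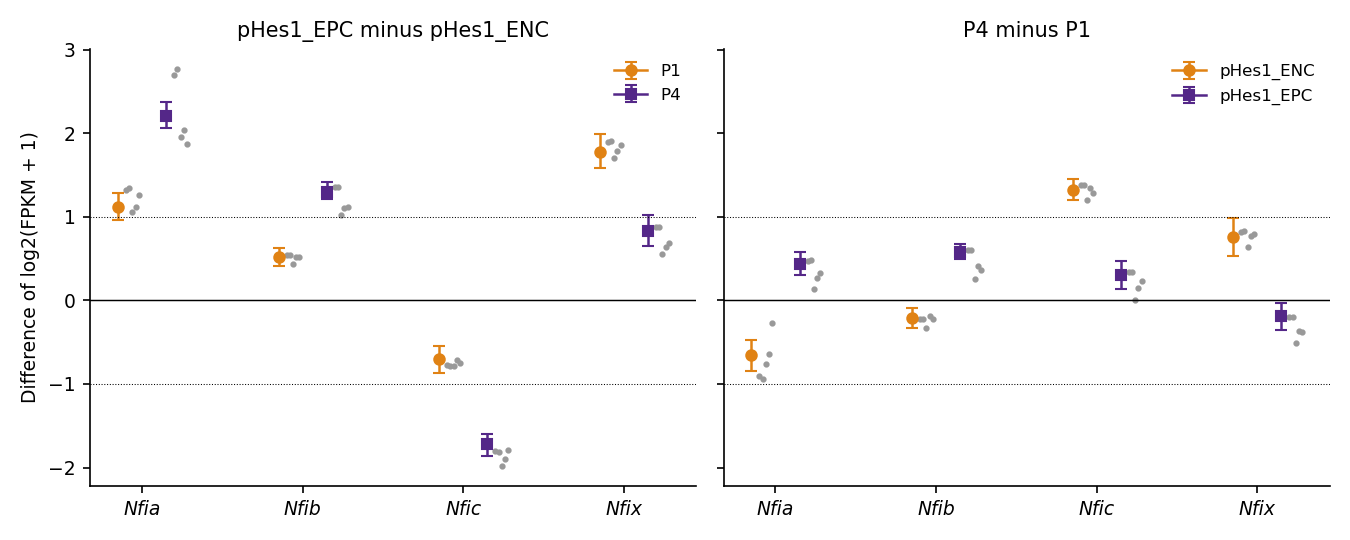
Differences of log2(FPKM + 1) for the 4 NFI genes, between fractions at P1 and P4 (left) and between ages within pHes1_ENC and pHes1_EPC (right), with bars from the ends of the Cufflinks intervals and dotted lines at 1 and -1. Small grey points give the same differences under 5 other pseudocounts or scalings, all on the same side of 0 as the coloured point.

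Reported targets of NFI factors in the developing brain were then examined, since they are the genes through which the family is known to act there. Of 10 genes listed as activated by NFI factors, 3 were above 1 and 2 below -1 in the fraction difference at P1. At P4, 5 were above 1 and 1 below -1. Over all 12940 genes, 10.3% were above 1 and 11.5% below -1 at P1, and 16.6% and 9.15% at P4. The medians of the 10 genes were 0.01 at P1 and 0.58 at P4, beside 0.02 and 0.15 over all genes. Slc1a3, the glial glutamate transporter GLAST, was at 34.0 FPKM at P1 and 15.1 at P4 in pHes1_ENC, and 177 and 231 in pHes1_EPC. Zcchc24 had differences of 1.95 at P1 and 3.95 at P4. Cdh2, which encodes N-cadherin, was at 60.3 and 33.5 FPKM in pHes1_ENC and at 145.5 and 130.1 in pHes1_EPC, with P1 before P4. These 3 genes were the ones above 1 at P1. Slc1a3 is also in the list of Müller glia markers below.

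Fabp7, a fatty acid binding protein of radial glia, had the opposite direction, with 573.5 FPKM in pHes1_ENC and 20.4 in pHes1_EPC at P1, and 760.2 and 234.8 at P4. Gfap, an intermediate filament of astrocytes, stayed between 0.318 and 1.21 FPKM in the 4 libraries. Gabra6, a receptor subunit of mature cerebellar granule cells, was listed at 0 in every library. In the fraction difference, Mmd2 was at -1.34 at P1 and -0.03 at P4, and Cntn2 at -0.60 and -0.53. Apcdd1 was at 0.000323 and 1.15, and Efnb1 at 0.68 and 1.67. The activated genes thus included both directions.

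The list of genes that NFI factors are reported to repress in the brain held Ezh2, Hes1 and Sox9. All 3 were higher in pHes1_EPC, and the difference was 0.84 at P1 and 0.59 at P4 for Ezh2 (a histone methyltransferase), 2.59 and then 4.37 for Hes1, and 1.78 and then 3.21 for Sox9 (a glial transcription factor). Hes1 is also the gene whose promoter defined the sort. Ezh2 was at 48.7 FPKM at P1 and 40.4 at P4 in pHes1_ENC, and 88.0 and 61.3 in pHes1_EPC.

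A list of 17 transcription factors and Notch pathway genes of glial competence was used to place the NFI genes among factors of the same lineage. It included Hes1, of which a promoter fragment drove the EGFP used to sort, so the direction of Hes1 is no separate evidence. Hes1 and Sox9 were also in the list of repressed genes. Of the 17 genes, 11 were above 1 and 1 below -1 at P1, beside 10.3% and 11.5% of all genes. At P4, 14 were above 1 and 0 below -1, beside 16.6% and 9.15%. The median differences were 1.78 and 3.11. The NFI medians of 0.82 and 1.07 were lower at both ages. Single NFI genes ranged from -0.71 to 1.78 at P1 and from -1.72 to 2.21 at P4. Within pHes1_ENC, 11 of the 17 genes were below -1 from P1 to P4 and 0 above 1, beside 10% and 4.67% of all genes. The lowest change of an NFI gene was the -0.66 of Nfia. Sox8 went from 36.9 to 7.02 FPKM and Id3, an inhibitor of basic helix-loop-helix factors, from 19.1 to 6.49 FPKM in pHes1_ENC, while in pHes1_EPC they were at 169 and 125 FPKM at P1 and at 140 and 188 at P4. Zbtb20, another factor of astrocyte formation, was at most at 1.49 FPKM and was at -0.47 at P1 and -0.67 at P4 in the fraction difference.

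Markers of the cell types of the retina were measured beside the NFI genes. Of 14 Müller glia markers, 10 were above 1 and 1, Clu, below -1 at P1, beside 10.3% and 11.5% of all genes. At P4, 11 were above 1 and 0 below -1, beside 16.6% and 9.15%. The summed FPKM of these 14 markers was between 490 in P4 pHes1_ENC and 5841 in P4 pHes1_EPC. Of 10 rod markers, 8 were below -1 at P1 and all 10 at P4, beside 11.5% and 9.15% of all genes. The rod markers summed to 756 FPKM in pHes1_ENC and 159 in pHes1_EPC at P1, and 4757 and 1071 at P4. The 16 bipolar markers summed to 909 FPKM in pHes1_ENC and 62.5 in pHes1_EPC at P1, and 1338 and 432 at P4. Most of each sum came from Otx2 and Neurod4, which photoreceptor precursors also express. In the same order of libraries, Otx2 was at 508.8, 41.8, 835.2 and 292.1 FPKM and Neurod4 at 346.9, 10.4, 437.3 and 113.0. Nfic, the rod markers and the bipolar markers were thus each highest in P4 pHes1_ENC and lowest in P1 pHes1_EPC, and the part of these cells in the Nfic values was not tested.

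Bipolar cells, another cell type that NFI factors are known to promote, were followed with the same 16 markers. Of these, 7 were below -1 and 0 above 1 at P1, beside 11.5% and 10.3% of all genes. At P4, 5 were below -1 and 1 above 1, beside 9.15% and 16.6%. The medians were -0.38 and -0.74. Otx2 and Neurod4, which photoreceptor precursors also express, were at -3.58 and -4.94 at P1 and at -1.51 and -1.94 at P4. Trpm1, the channel of ON bipolar cells, was the 1 marker above 1 at P4, with 1.49. Its level at P4 was low, at 0.0143 FPKM in pHes1_ENC and 1.85 in pHes1_EPC. Vsx1 and Grm6, markers of maturing bipolar cells, were at most at 0.642 FPKM. Of 10 amacrine markers 8 were found, and their median was -2.01 at P1 and -0.99 at P4. The 8 ganglion cell markers had -0.14 and -0.08.

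**Figure D5:**
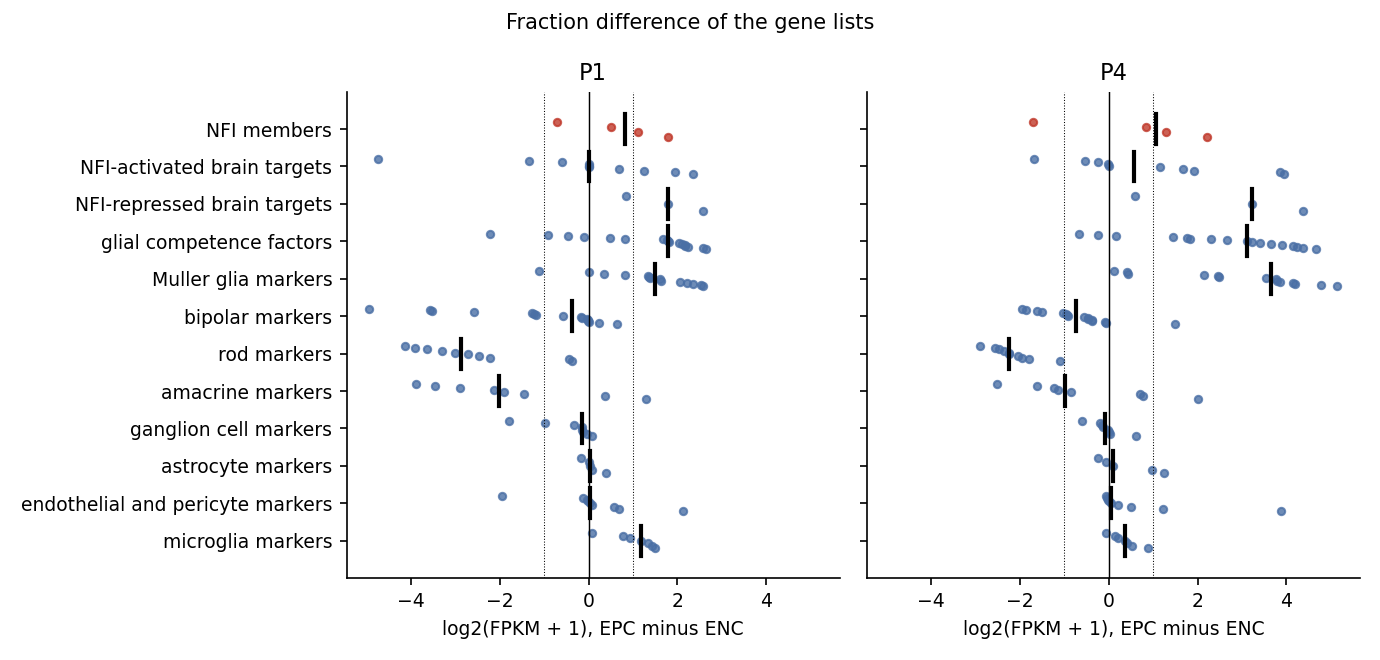
Difference of log2(FPKM + 1) between pHes1_EPC and pHes1_ENC (horizontal axis) at P1 and P4 for each gene (points) of the NFI family (red) and of 11 gene lists (blue), with black bars at the list medians and dotted lines at 1 and -1. The NFI points spread from -0.71 to 1.78 at P1 and from -1.72 to 2.21 at P4, while the rod points all lie below 0.

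Astrocytes, microglia and vascular cells are also present in the retina, and their markers were summed. The 5 astrocyte markers summed to between 3.89 FPKM in P1 pHes1_ENC and 15.2 FPKM in P4 pHes1_EPC, mostly from Pdgfra, which reached 11.1, while Gfap and Pax2 were at most at 1.21 and 1.03. The 7 microglia markers summed to 2.54 FPKM in pHes1_ENC and 13.1 in pHes1_EPC at P1, and to 8.16 and 12.7 at P4. Nfix had the same order of libraries. In the fraction difference at P1, 4 of the 7 microglia markers were above 1, beside 10.3% of all genes. The 9 endothelial and pericyte markers summed to between 15.0 and 215 FPKM, of which Kdr alone gave 12.0 to 209. Cldn5 was at 16.3 FPKM in pHes1_ENC and 3.49 in pHes1_EPC at P1, and at 2.59 and 4.06 at P4. Pecam1, Cdh5, Tek and Tie1 were at most at 0.142. The part of these cells in the NFI values was not tested.

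The genes with a profile most like that of each member were found by the root mean square difference of log2(FPKM + 1), centred on the mean of each gene, over the 4 libraries and among 12936 other genes. With 4 libraries, such a likeness is a description. Nfia was closest to Sri, which encodes a calcium-binding protein, Sorbs2 and Bccip (0.04, 0.05 and 0.05). Nfib was closest to the ribosomal protein gene Rps4x, to Tap2 and to Rpl12 (0.02, 0.02 and 0.03). Nfic was closest to Tln2, which encodes a talin, to D430042O09Rik and to the nuclear receptor gene Ppara (0.03, 0.06 and 0.07). For Nfix, the glutathione reductase gene Gsr was at 0.07 and the DNA repair gene Mgmt at 0.15. Tap2 was at 0.137 to 1.84 FPKM, Ppara at 0.0653 to 3.71 and Mgmt at 0.177 to 2.23. At such low levels the pseudocount of 1 shrinks the differences, so these 3 likenesses do not extend to the ratios of FPKM. Nfia was itself low in P4 pHes1_ENC, and its likenesses do not extend to these ratios either. In pHes1_ENC and pHes1_EPC at P4, Nfia was at 1.66 and 11.3 FPKM, beside 25.1 and 114.8 for Bccip. Among the members themselves, Nfia and Nfib were the closest pair (0.41), followed by Nfib and Nfix (0.48) and by Nfia and Nfix (0.57). Nfic was at 1.60 from Nfia, 1.19 from Nfib and 1.29 from Nfix. By closeness to Nfia, Nfic held place 12167 in this comparison.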

How the data were processed

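RNA from Hes1P and Hes1N cells at P1 and P4 was measured in 4 libraries, 1 per group. The reads (36 bases, single-end) were mapped by the authors on NCBI37/mm9. They used TopHat2 2.0.8b, keeping up to 50 positions per read, and deposited gene FPKM with 95% intervals from Cufflinks 2.1.1. The submitters' processing notes also list bcl2fastq 1.8.4. The annotation release is not given in the sources used here.

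The tables, with 23021 lines each, were joined by gene and locus. Small RNAs (797 lines) were left out, and the highest line was kept for 234 symbols with several lines. Differences are on log2(FPKM + 1), with a pseudocount of 1, and were listed when past 1. Scaling alternatives were a common total, median-of-ratios and quantile normalization. The steps were tested on simulated data. Read totals are not in the tables. If the interval widths are read as counting error alone, each member rested on the equivalent of 349 to 4896 reads. The half-widths were 2.86% to 10.7% of the FPKM.

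Genes named are the 4 members, all genes of the lists, and the 3 genes most like each member, of which 1 is not reported here. E130114P18Rik, G430095P16Rik and Gm16104 were named for their overlap with a member. The members and lists were chosen with earlier results of these data known. Gene sequences were read from the NCBI37 genome, the build of the files, and promoters from RefSeq (GRCm38.p6). Python 3.11.15, numpy 2.4.6, pandas 2.3.3, scipy 1.17.1 and matplotlib 3.10.9 were used.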

Additional observations from a re-analysis of the deposited data

Results flagged for a closer look

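The change from P1 to P4 had opposite signs in the 2 fractions for 3 of the 4 NFI genes, and for 33.8% of the 12940 expressed genes. For Nfia the difference in log2(FPKM + 1) was 0.44 in pHes1_EPC and -0.66 in pHes1_ENC, which are 1.09 apart, and 10.3% of the 12940 genes had a larger value. For Nfib the changes were 0.58 and -0.21, which are 0.78 apart, and 17.9% of the genes had a larger value. For Nfix the order was reversed, with -0.19 in pHes1_EPC and 0.75 in pHes1_ENC, a difference of -0.94, and 2.98% of the genes had a lower value. Nfic was higher at P4 in both fractions, by 0.31 in pHes1_EPC and 1.32 in pHes1_ENC. This is a difference of -1.01, and 2.44% of the genes had a lower value. With 1 library in each group, these differences between the fractions were not tested.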

How the results depend on the processing

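Differences of the 4 NFI genes were recomputed under 5 alternatives. Of 80 values, 53 moved by no more than the half-width of their interval from the Cufflinks ends, 27 moved by more and 0 changed sign. The counts of members past 1 or -1 were the same under each alternative. A smaller pseudocount spreads low values by construction. With 0.1, Nfia was at 1.32 at P1, 2.69 at P4 and -0.90 for the age change in pHes1_ENC, and without a pseudocount at 1.34, 2.77 and -0.94. After scaling to a common total, the P4 differences were 1.95 for Nfia, 1.02 for Nfib, -1.98 for Nfic and 0.56 for Nfix. The age changes in pHes1_EPC were then 0.13 for Nfia, 0.25 for Nfib, 0.00711 for Nfic and -0.52 for Nfix, and in pHes1_ENC -0.33 for Nfib. With median-of-ratios scaling, the P4 differences were 2.04 for Nfia, 1.11 for Nfib, -1.90 for Nfic and 0.64 for Nfix, and the age changes in pHes1_EPC were 0.27, 0.41 and -0.36 for Nfia, Nfib and Nfix. With quantile normalization, Nfia and Nfib were at 1.87 and 1.12 at P4, Nfib and Nfix at 0.37 and -0.38 for the age change in pHes1_EPC, and Nfia at -0.28 for that in pHes1_ENC. Scaling to a common total moved the median of all genes from 0.15 to -0.09 at P4, from 0.17 to -0.10 for the age change in pHes1_EPC and from -0.01 to -0.12 for that in pHes1_ENC. The age changes of Nfic and Nfix in pHes1_EPC, of 0.31 and -0.19, were about as large as this move or smaller, and those of Nfia and Nfib larger. Of the 21827 genes, 1331 were past 1 at P1 and 1483 and 1184 past -1 at P1 and P4. With a pseudocount of 0.1 these counts were 2057, 2470 and 1963.

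No paired analysis was possible because each group has 1 library, so that no groups share a second replicate number, and for the same reason leaving out a replicate was not run. The intervals come from 1 library at a time and do not cover the variation between animals or sorts, which was not measured.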

Other observations

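The promoters of the family were searched for the NFI recognition sequence in RefSeq sequences of GRCm38.p6, 300 bases around each start. The full palindrome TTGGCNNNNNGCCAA was found in 12 of 32851 promoters (0.0365%) and in 0 of the 6 promoters matched to Nfia, Nfic and Nfix. The core motif TTGGC, on either strand, was in 3 of these 6 promoters and in 46.7% of all promoters. Its complement shares letters with the CCAAT box. Of the 10 brain genes listed as activated by NFI factors, 8 had a promoter in the table, and the core motif was in 6 of these 8. Nfib had no entry.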
